A study of Mus musculus with 10 samples.

Results

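NF-kB is a family of transcription factors that switch on inflammatory and survival genes in white blood cells. In a resting cell its subunits are held in the cytoplasm by inhibitory IkB proteins. A signal from a receptor for bacterial products or cytokines leads a kinase complex to mark the inhibitor for destruction, and the freed subunits enter the nucleus and act there. Several of the genes they switch on code for their own inhibitors, so that the pathway limits itself. In neutrophils, the first white cells to reach an infection, this pathway supports cytokine production and survival.

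The genes described here are 10 named subunits, inhibitors and regulators of NF-kB, chosen by gene symbol with earlier results of these data known. Of these, 9 were matched to a probe set of the array and are described below, and Nfkb1 is not analysed here. They are the subunit genes Rela, Rel and Nfkb2, the inhibitor genes Nfkbia and Nfkbie, the nuclear IkB-like genes Nfkbiz and Bcl3, the gene Tnfaip3 for the ubiquitin-editing brake A20, and Traf1, which codes for an adaptor of TNF receptors. Each gene is read by its probe set with the highest mean, and all 9 were above the filter on dim genes, so they stand among 10734 tested genes out of 17097 with a symbol.

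The samples were blood neutrophils of untreated male C57BL/6 mice, 3 months old, after 9 days of acclimatization. In the first group the blood of 5 mice was processed separately, with 1 array per animal (mouse 1 to mouse 5). In the second group the blood of 5 other mice was mixed and divided into 5 portions before the cells were isolated (pool 1 to pool 5), so that these arrays are technical replicates of 1 sample. The cells were drawn out with magnetic beads through Ly6G, a neutrophil surface protein, and the labels give a purity of 71.5% to 99.5% with no value for single samples. The study asked how far gene expression in neutrophils differs between individuals, beyond the noise of the procedure. The values are log2 array signals, and the number of arrays limits the precision.

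Mouse 5 stood apart in most abundant genes. Its 95th percentile of signal was 7.46, against 8.72 to 9.25 on the other arrays, and control probes for the 3′ part of Gapdh, a gene used in all cells, read 7.78, against 11.62 to 12.25. The neutrophil genes S100a8 and S100a9 were nevertheless high on every array, at 12.67 to 13.29 and 12.28 to 12.80. Of 8 neutrophil markers, 6 had a probe set, and their level relative to each gene's mean over the 10 arrays was -2.11 in mouse 5 and -0.23 to 0.61 elsewhere. Markers of B cells, which are not neutrophils, stood at 0.88, 0.87, 1.63, -2.55 and -1.62 in mice 1 to 5, and the pool arrays ranged from -0.17 to 0.77 (7 of 10 markers above the filter, with Pax5 below it). Of 9 T cell markers 3 were above the filter, and Cd3g and Cd8a were below it. The tests below were therefore computed again with mouse 5 left out, and with mice 4 and 5 left out together. A further quantile normalization of the 10 arrays moved the median of the tested genes by 0.38 in mouse 5. The median moved by -0.19 in pool 1, by -0.15 in mouse 3 and by 0.13 in mouse 4. Single genes moved by other amounts. In mouse 5 Rela went from 6.96 to 8.24 and Nfkbie from 7.94 to 9.30, but Bcl3 only from 5.25 to 5.31. A difference between arrays is thus read beside shifts that differ from gene to gene and can exceed that of the median. In a bulk sample, fewer cells of a type and less RNA per cell cannot be told apart. The highest correlation of mouse 5 with any other array was 0.80, and the next lowest such value was 0.94, in mouse 4. Whether the RNA or the array of mouse 5 differed in quality was not tested.

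The binding sequence of NF-kB was looked for in the bases ahead of each gene, since the pathway is known to act back on its own genes. The 10-base consensus site of NF-kB was searched on both strands in the 250 bases before each start in RefSeq (build GRCm38.p6). It was present before at least 1 start of 5 of the 8 members with an entry among these sequences, and before 8.23% of all 27025 genes. Nfkbiz and Nfkb1 had no entry and were not searched. Overlapping matches can share bases, and a match is a description of letters and not of binding. The 5 stretches below show the matches at the most upstream start of each gene, with the matched bases in capitals. They lie at chr19:46304673-46304736 (+) for Nfkb2, chr11:23771026-23771086 (-) for Rel, chr12:55492648-55492701 (-) for Nfkbia, chr17:45555569-45555628 (+) for Nfkbie and chr10:19015411-19015560 (-) for Tnfaip3.
Nfkb2: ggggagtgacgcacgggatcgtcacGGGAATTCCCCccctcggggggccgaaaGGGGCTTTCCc
Rel: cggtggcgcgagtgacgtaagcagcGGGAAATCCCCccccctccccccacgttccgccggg
Nfkbia: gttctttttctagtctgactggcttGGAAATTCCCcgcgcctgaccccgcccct
Nfkbie: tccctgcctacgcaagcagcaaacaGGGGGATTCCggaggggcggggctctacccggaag
Tnfaip3: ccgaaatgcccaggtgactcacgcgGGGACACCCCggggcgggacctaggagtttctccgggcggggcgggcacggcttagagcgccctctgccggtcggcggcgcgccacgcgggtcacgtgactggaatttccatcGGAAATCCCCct
In Tnfaip3 the first match began 125 bases and the last 12 bases before the start, and in Nfkbia the match began 29 bases before it. Rela, Traf1 and Bcl3 held no match in this window.

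The subunit genes differed in how they behaved. Rela, which codes for p65, the main activating subunit (Entrez gene 19697), read 10.19, 10.06, 10.16 and 10.17 in mice 1 to 4 and 6.96 in mouse 5. The pool arrays read 9.94, 9.76, 10.17, 9.71 and 9.15. As deposited, mice 1 to 4 were thus nearly level, closer together than the 5 portions of 1 pool. Mouse 5 lay below all other arrays. The SD was 1.43 over the 5 mice, 0.061 over mice 1 to 4 and 0.38 over the pool, and 98.2% of tested genes had a larger SD over mice 1 to 4. With all mice counted, the variance of Rela over the mice exceeded that over the pool (variance ratio 15.6, limma adjusted p = 0.000705, n = 5 against 5). Without mouse 5 the ratio turned to -5.14 on the log2 scale, and the limma test for a smaller variance between mice gave an adjusted p of 1. After the arrays were quantile normalized again, the SD of Rela over mice 1 to 4 was 0.21. Mice 1 to 4 then read 9.85 to 10.35 and the pool 9.29 to 9.79. These mice were no longer closer together than the portions of the pool. The closeness of Rela thus rests on the scaling as deposited. The difference of mouse 5 from the mean of mice 1 to 4 went from -3.19 to -1.88.

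Nfkb2 codes for p100 and p52, the subunit of the alternative branch of the pathway (Entrez gene 18034). It read 7.39, 7.13, 6.67 and 7.23 in mice 1 to 4, 5.59 in mouse 5. The pool arrays read 6.95, 6.89, 6.96, 6.57 and 6.38. Mouse 3 was the lowest of mice 1 to 4 and the only one of them within the range of the pool. Its variance ratio was 8.07 with all mice (limma adjusted p = 0.00574) and 1.45 without mouse 5 (adjusted p = 0.474).

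Rel, the gene for c-Rel, a subunit best known from lymphocytes (Entrez gene 19696), was the 1 member that did not pass the test with all mice. It read 5.96, 5.93, 5.85, 5.57 and 5.73 in mice 1 to 5, and 6.30, 5.51, 5.95, 5.97 and 5.88 in the pool. All 5 mice lay within the range of the pool, and mouse 5 did not stand apart, although after quantile normalization it lay 0.33 above the mean of mice 1 to 4 instead of below it (-0.10). Rel was the dimmest of these subunit genes, with a mean of 5.86 beside 6.78 for Nfkb2 and 9.63 for Rela. It thus had less room to fall in mouse 5. The SD was 0.16 over the mice and 0.28 over the pool (log2 variance ratio -1.09, limma adjusted p = 0.78 for a larger variance between mice).

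**Figure D1:**
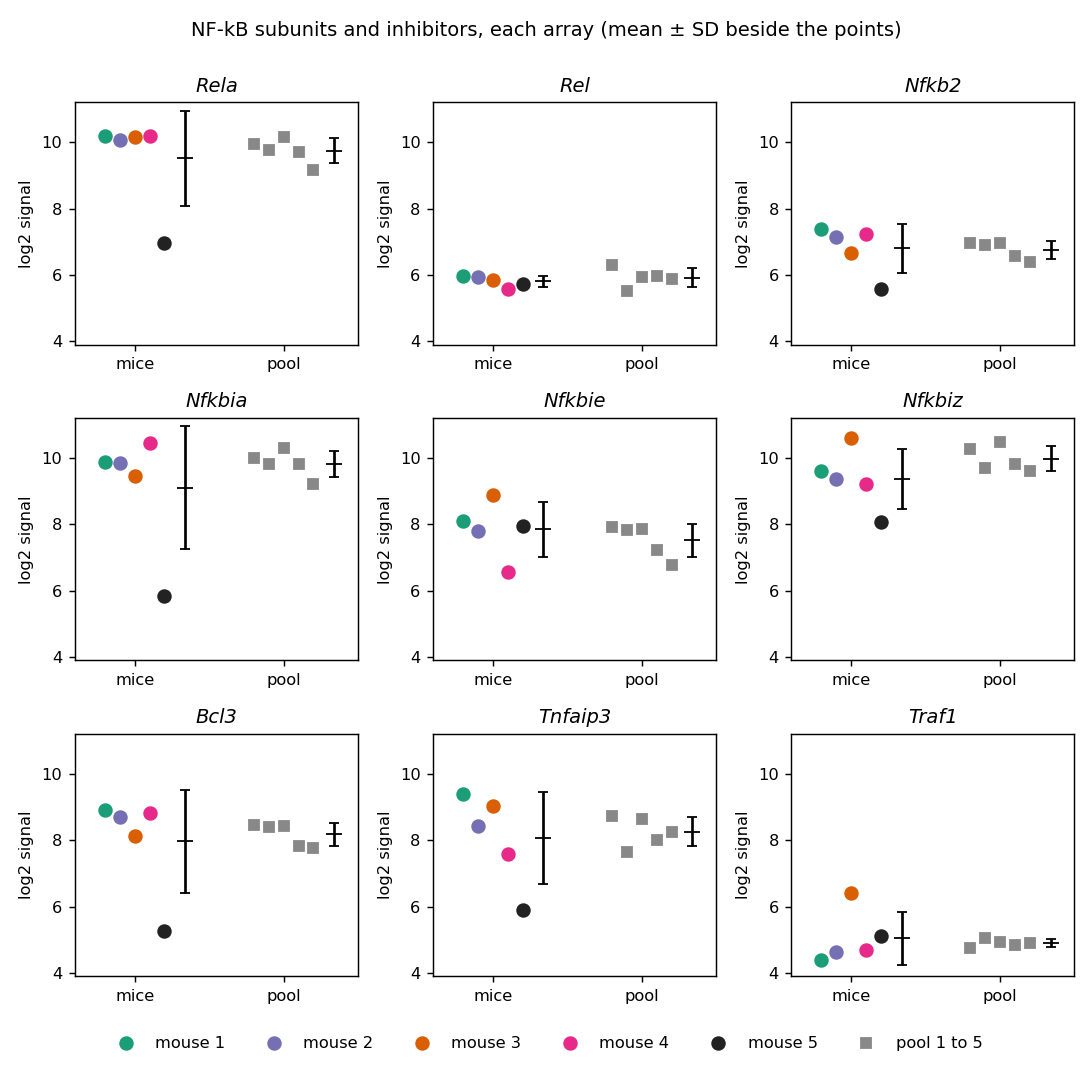
Log2 signal (vertical axis, one scale for all panels) of the 9 genes in the 5 mice (circles, 1 colour per animal) and the 5 pool arrays (grey squares), with the mean and SD of each group as a bar beside the points, as deposited. Mouse 5 is the lowest array for Rela, Nfkb2, Nfkbia, Nfkbiz, Bcl3 and Tnfaip3, mouse 3 is the highest for Nfkbie, Nfkbiz and Traf1, and Rel stays between 5.51 and 6.30 on every array.

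Of the genes that restrain or tune the pathway, Nfkbia, Bcl3, Nfkbiz and Tnfaip3 were lowest in mouse 5 as deposited. The probe sets used for Nfkbie and Traf1 were not. A second probe set of Nfkbie was lowest in mouse 5, at 4.81. Traf1 read 4.40 to 4.69 in mice 1, 2 and 4, near the filter on dim genes of 4.58. Nfkbia codes for IkB-alpha, the inhibitor that is destroyed first and made again within one round of signalling (Entrez gene 18035). It read 9.89, 9.86, 9.47 and 10.45 in mice 1 to 4 and 5.84 in mouse 5. Its pool values were 10.00, 9.82, 10.29, 9.80 and 9.22. Mouse 4 was the highest of the 10 arrays, whereas mouse 5 was lower than the mean of mice 1 to 4 by 4.07 log2 units (-4.07), the largest such difference of the 9 genes. Of all tested genes, 2.53% had a larger drop in mouse 5, where the median gene differed by -0.45. That share is over genes of all signal levels, and a dim gene has less room to fall than Nfkbia. The share among genes as bright as Nfkbia was not computed. The SD of Nfkbia was 1.85 over the mice, 0.40 over mice 1 to 4 and 0.39 over the pool. The variance ratio was 25.6 with all mice (limma adjusted p = 0.000182) and 1.21 without mouse 5 (adjusted p = 0.547).

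Bcl3, an IkB-like protein that works in the nucleus with the p50 and p52 subunits (Entrez gene 12051), read 8.92, 8.68, 8.14 and 8.83 in mice 1 to 4 and 5.25 in mouse 5. The pool read 8.45, 8.41, 8.43, 7.83 and 7.77. Mice 1, 2 and 4 lay above every pool array, mouse 3 lay within the range of the pool and mouse 5 lay below it. The variance ratio was 21.4 with all mice (limma adjusted p = 0.000288) and 1.08 without mouse 5 (adjusted p = 0.59). Over the 9 arrays without mouse 5, Bcl3 and Nfkb2 had the most similar profiles of all pairs of members, with a root mean square difference of 0.0945 between their centred log2 values. The next pair, Nfkb2 and Rela, differed by 0.217.

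Nfkbie codes for IkB-epsilon, an inhibitor that is induced later than IkB-alpha (Entrez gene 18037). Its probe set 1458299_PM_s_at read 8.10, 7.80, 8.87, 6.56 and 7.94 in mice 1 to 5 and 7.93, 7.83, 7.85, 7.22 and 6.78 in the pool. Here mouse 3 was the highest and mouse 4 the lowest of all arrays, and mouse 5 lay near mice 1 and 2, but after quantile normalization it stood 1.61 above the mean of mice 1 to 4, in place of 0.10, and at 9.30 was the highest array. The SD was 0.83 over the mice, 0.96 over mice 1 to 4 and 0.50 over the pool, a spread of the pool that 4.43% of tested genes exceeded. The variance ratio was 4.72 with all mice (limma adjusted p = 0.0286) and 6.27 without mouse 5 (adjusted p = 0.0475), but 2.09 without mice 4 and 5 (adjusted p = 0.843). Without mouse 4 alone the call was also lost (adjusted p = 0.311), as it was without mouse 3 (adjusted p = 0.0819). The second probe set, 1431843_PM_a_at, disagreed in mouse 5. It read 6.30, 6.26, 6.34, 5.76 and 4.81 in mice 1 to 5 and 5.02 to 5.79 in the pool, so that mouse 5 was its lowest array and mouse 3 hardly differed from mice 1 and 2.

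Nfkbiz codes for IkB-zeta, a nuclear cofactor that helps NF-kB to switch on a second wave of genes (Entrez gene 80859). It read 9.61, 9.35, 10.59, 9.23 and 8.07 in mice 1 to 5 and 10.26, 9.70, 10.49, 9.83 and 9.60 in the pool. Mouse 3 was just above the highest pool array, mouse 1 was near the lowest, and mice 2, 4 and 5 lay below the whole pool. After quantile normalization mouse 5 read 9.43, near mice 1, 2 and 4, and the call of a larger variance was lost (limma adjusted p = 0.0508). The variance ratio was 6.19 with all mice (limma adjusted p = 0.013), 2.91 without mouse 5 (adjusted p = 0.207) and 3.25 without mice 4 and 5 (adjusted p = 0.656). A second probe set, 1457404_PM_at, was also highest in mouse 3, at 10.03, and read 4.48 in mouse 5. The third, 1448728_PM_a_at, was highest in mouse 4, at 8.55, with 7.80 in mouse 3 and 6.06 in mouse 5. The 3 probe sets of Nfkbiz thus share the low value of mouse 5 but not the order of mice 3 and 4.

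Tnfaip3 codes for A20, an enzyme that edits ubiquitin chains and so cuts signalling to NF-kB (Entrez gene 21929). It read 9.38, 8.44, 9.02, 7.58 and 5.89 in mice 1 to 5 and 8.74, 7.65, 8.65, 8.02 and 8.26 in the pool. Mice 1 and 3 lay above every pool array and mice 4 and 5 below, with mouse 2 inside the range. The SD was 1.39 over the mice, 0.79 over mice 1 to 4 and 0.45 over the pool. The variance ratio was 13.6 with all mice (limma adjusted p = 0.00107), 4.34 without mouse 5 (adjusted p = 0.103) and 1.59 without mice 4 and 5 (adjusted p = 0.939). Another probe set of Tnfaip3, 1450829_PM_at, read 3.58 to 3.83 on all arrays, below the filter on dim genes of 4.58.

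Traf1, itself an NF-kB target, codes for an adaptor that joins TNF receptor complexes (Entrez gene 22029). It was low on 9 arrays and raised in 1 mouse. It read 4.40, 4.63, 6.40, 4.69 and 5.10 in mice 1 to 5 and 4.76, 5.06, 4.94, 4.84 and 4.89 in the pool. Mouse 3 lay above all other arrays, and mouse 5 did not fall. The 5 mice spanned 2.00 log2 units and the 5 pool arrays 0.30, although mouse 1, the lowest, lay below the filter on dim genes of 4.58. Its variance ratio was 30.1 with all mice (limma adjusted p = 0.000131), 40.1 without mouse 5 (limma adjusted p = 0.000413) and 56.4 without mice 4 and 5 (adjusted p = 0.00107). Without mouse 3 the call was lost (log2 variance ratio 2.00, adjusted p = 0.0546), so it rests on that animal. The second probe set, 1423602_PM_at, whose mean of 4.13 lay below that filter, was also highest in mouse 3, with 5.58 in mouse 3, against 3.49 to 4.19 among the remaining 4 mice and 3.80 to 4.21 on the pool arrays. Of all tested genes, 1.81% stood higher in mouse 3 over mice 1, 2 and 4 than Traf1 did. B cell markers were also highest in mouse 3, at 1.63, with 0.88, 0.87 and -2.55 in mice 1, 2 and 4. Among the mice, neutrophil (0.41), MHC class II (0.90), monocyte (0.33) and erythroid (0.67) markers were highest in mouse 3 too. Those of T cells, NK cells, platelets, eosinophils and basophils were not. The part of any cell type in the Traf1 value was not tested.

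**Figure D2:**
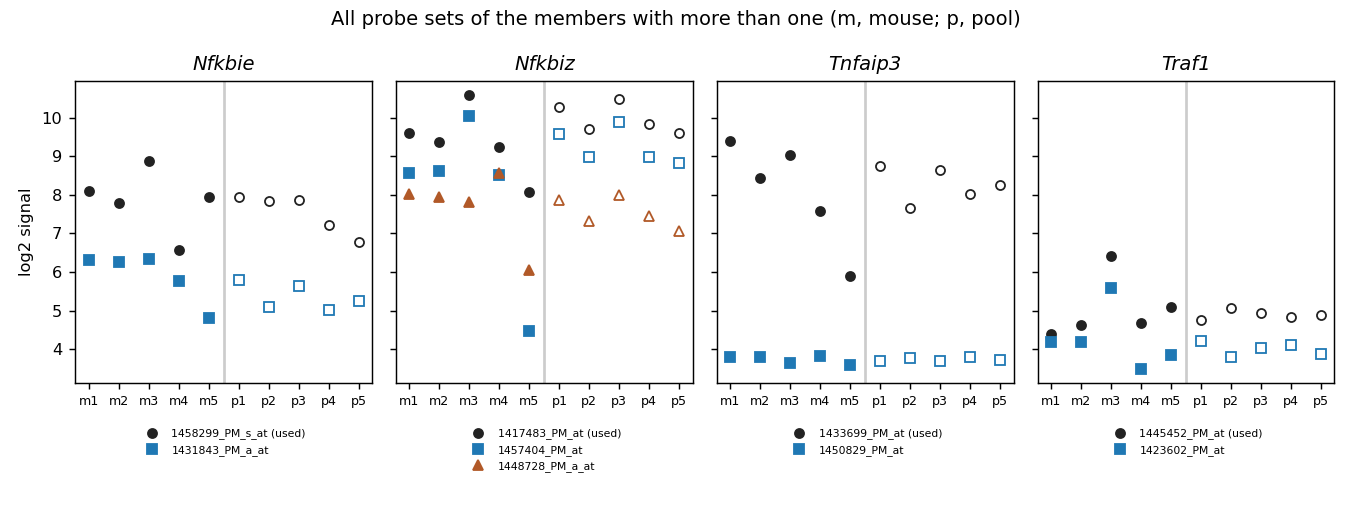
Log2 signal of every probe set of Nfkbie, Nfkbiz, Tnfaip3 and Traf1 in mice 1 to 5 (m1 to m5, filled symbols) and in the pool (p1 to p5, open symbols). Both Traf1 probe sets are highest in mouse 3, while those of Nfkbie part in mouse 5 (7.94 and 4.81) and those of Nfkbiz part in mice 3 and 4.

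Counted together, 8 of the 9 genes had a larger variance over the mice than over the pool arrays (moderated variance test in limma, Benjamini-Hochberg adjusted over all genes). The same call was made for 66.9% of all tested genes, so the members' share is read against a high background. A Levene-type test in limma, which compares absolute deviations from the group median, called 0 genes and 0 members in either direction (adjusted p of those 8 members 0.615 to 0.792), and without moderation of the pool variance 4 members passed. Without mouse 5 it held for 2 of 9, Nfkbie and Traf1, where 19.5% of all genes passed, and without mice 4 and 5 for Traf1 alone, where 0.671% passed. In the opposite direction 0 members and 0 of all tested genes passed in limma, with 0 members and 57 genes at an unadjusted p under 0.05. Without mouse 5 limma again called 0 genes as less variable, with 316 genes at an unadjusted p under 0.05, of which 1 was a member, Rela. The median log2 variance ratio of the 9 genes was 3.77, 0.54 and 0.67 in the sets of 5, 4 and 3 mice, beside 2.72, 0.98 and -0.65 for all tested genes. In a one-sided exact permutation test of each gene's own arrays, the unadjusted p was 0.0159 for Traf1 and 0.0357 for Bcl3. It lay between 0.0516 for Tnfaip3 and 0.786 for Rel in the others (smallest possible p 0.00397).

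**Figure D3:**
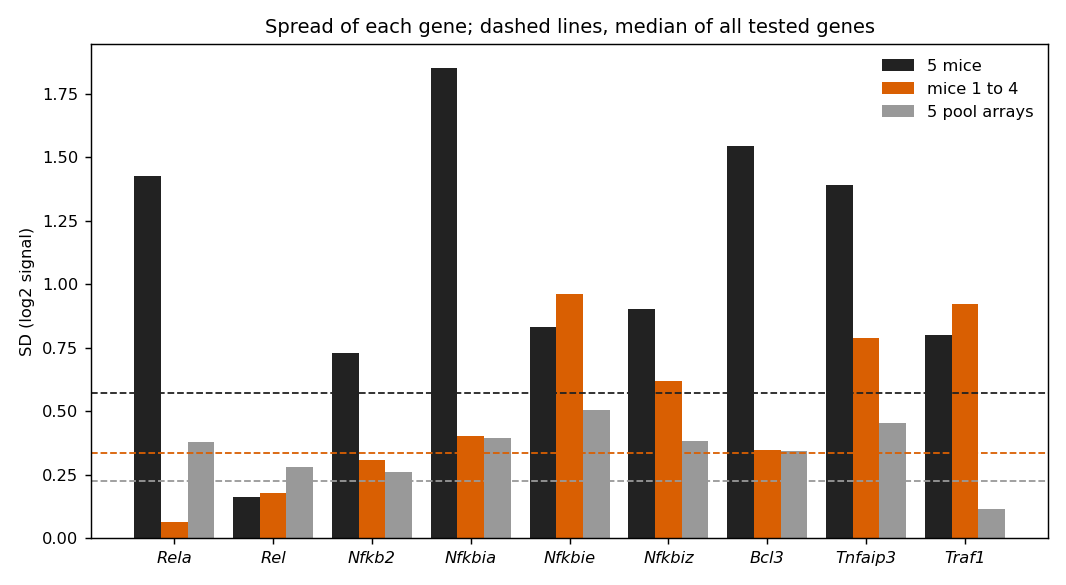
SD of the log2 signal (bars) of each of the 9 genes over the 5 mice, over mice 1 to 4 and over the 5 pool arrays, with the medians of all tested genes as dashed lines (0.57, 0.33 and 0.23). For Rela, Nfkbia and Bcl3 the bar drops when mouse 5 is left out, to 0.061, 0.40 and 0.35. For Nfkbie and Traf1, with the probe sets used, it does not.

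Single arrays moved the genes in different ways. Mouse 5 was the lowest of the 10 arrays for 6 of the 9 genes, as it was for 43.8% of all tested genes (5 of 9 and 36.3% after quantile normalization, where Nfkbiz was lowest in mouse 4). The level of the 9 genes together, relative to each gene's mean, was -1.55 in mouse 5, 0.39, 0.18, 0.54 and 0.00 in mice 1 to 4 and -0.26 to 0.38 in the pool. Mouse 4 was the lowest of mice 1 to 4 for Nfkbie, Nfkbiz, Rel and Tnfaip3, 4 of 9, beside 52.0% of all genes. Its difference from the mean of mice 1 to 3 ran from -1.69 for Nfkbie and -1.37 for Tnfaip3 to 0.71 for Nfkbia, with a median of -0.22 over all genes. B cell and MHC class II markers stood at -2.55 and -2.17 in the same mouse, and their part in the low values of Nfkbie and Tnfaip3 was not tested. Mouse 3 was the highest of the 10 arrays for Nfkbie, Nfkbiz and Traf1, 3 of 9, beside 21.1% of all genes (2 of 9 and 14.8% after quantile normalization, without Nfkbie). It was the lowest of mice 1 to 4 for Nfkbia, Nfkb2 and Bcl3, 3 of 9, beside 26.1% of all genes. Mouse 1 was the highest of the mice for Bcl3, Nfkb2, Rel, Rela and Tnfaip3, 5 of 9, beside 19.3% of all genes. Pool 5 was the lowest portion of the pool for 6 of 9 genes, beside 37.2% of all genes. The 5 mice lay wholly above or wholly below the pool for 0 of the 9 genes, beside 0.503% and 5.47% of all genes. As deposited, mice 1 to 4 did so for 0 of 9 as well, beside 2.08% and 7.99%.

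**Figure D4:**
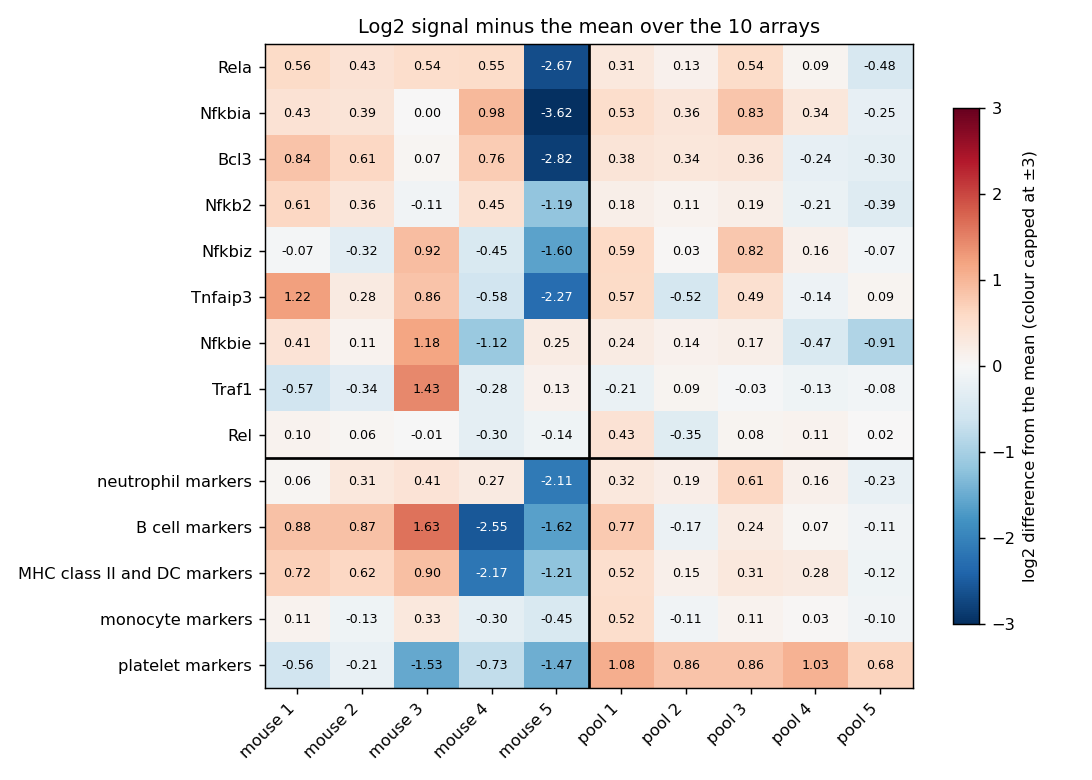
Log2 signal of each of the 9 genes minus its mean over the 10 arrays (upper rows), and the mean of the same quantity for lists of marker genes (lower rows), by array. The column of mouse 5 is lowest for Nfkbia (-3.62), and mouse 4 has -1.12 for Nfkbie, -0.58 for Tnfaip3 and -2.55 for the B cell markers.

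Mean levels were compared using the spread of the single animals as the error, since the pool is 1 sample. No member passed the test of the mean. The difference, mice minus pool, ran from -0.73 for Nfkbia (SE 0.97) to 0.33 for Nfkbie (SE 0.54), with a limma adjusted p of 0.9995 for each of the 9. Of all tested genes 0 passed in limma in either direction (0% each), with 568 at an unadjusted p under 0.05 and none of these a member. An ordinary 2-group fit called 288 genes and 0 members. Without mouse 5, the mean was higher in the mice than in the pool for 7 of the 9 genes (median difference 0.31, beside -0.0002 for all tested genes). The sign changed from lower to higher for Rela, Nfkbia, Tnfaip3 and Bcl3, which were then higher by 0.40 (SE 0.16), 0.09 (SE 0.26), 0.34 (SE 0.42) and 0.46 (SE 0.25). The smallest limma adjusted p of a member was then 0.403, for Rela, while 0.0186% of all genes passed as higher and 1.72% as lower. Without mice 4 and 5 the smallest was 0.183, again for Rela, with 0.671% of all genes higher and 3.5% lower. A p that misses the threshold does not show that the groups were alike. Platelet markers were lower in every mouse than in the pool, at -1.53 to -0.21 against 0.68 to 1.08, and their part in these differences was not tested.

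Other genes of the pathway, in 5 lists, gave 55 of 71 tested genes that varied more between mice, 11 without mouse 5. With mice 4 and 5 both left out, limma called 0 of them, with 9 at an unadjusted p under 0.05 among the 71. The 66.9%, 19.5% and 0.671% of all genes given above are the background of the counts of 55, 11 and 0. For the 9 genes at an unadjusted p the background is 951 of all 10734 tested genes. The lists were chosen with earlier results of these data known. Their median log2 variance ratio was 3.56, and 1.07 without mouse 5.

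Among receptors and adaptors, 19 of 21 tested genes passed, and 6 without mouse 5. Of these the 4 with the largest ratio were Tnfrsf13c, the B cell receptor for the survival factor BAFF, Cd40, a costimulatory receptor of B cells and other antigen-presenting cells, Malt1 and Map3k7. Tnfrsf13c read 7.99, 7.82, 8.41, 5.31 and 6.52 in mice 1 to 5 and 6.74 to 7.86 in the pool (limma adjusted p = 0.00312 without mouse 5). Malt1, a protease that passes antigen receptor signals to NF-kB, read 7.65, 7.62, 9.12, 6.28 and 3.97 in mice 1 to 5 (adjusted p = 0.00877). Of the mice, each of these 4 genes was highest in mouse 3 and lowest of mice 1 to 4 in mouse 4, the order in which the B cell markers also stood, and the part of B cells was not tested. The 2 other genes that passed, named after their values were seen, had another order. Il1r1, a receptor of interleukin-1, was higher in mouse 4, at 6.51, than in mice 1 to 3, at 5.48, 5.36 and 5.40, and Traf5, an adaptor of TNF receptors, read 8.09, 8.06, 7.51 and 6.12 in mice 1 to 4. Bcl10, the partner of Malt1, had the largest SD of this list over the 5 mice, 2.26, which was 0.31 without mouse 5.

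Of the kinases 3 of 6 passed, and Ikbke alone did without mouse 5 (limma adjusted p = 0.0283). Ikbke, a relative of the IkB kinases, read 5.69, 5.57, 6.14, 5.07 and 4.49 in mice 1 to 5 and 5.50 to 5.67 in the pool. Map3k8, a kinase held by p105, had the largest SD of this list, 1.46, and 0.26 without mouse 5. Of the remaining subunit and IkB genes all 3 passed, Relb, Nfkbib and Nfkbid. Without mouse 5, 0 did in limma, with 1 at an unadjusted p under 0.05, beside 3601 of all 10734 tested genes. Nfkbid, a nuclear IkB-like gene, read 9.66, 8.95, 8.71, 7.87 and 6.65 in mice 1 to 5 and 8.60 to 9.09 in the pool (adjusted p = 0.0554 without mouse 5).

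Ubiquitin editors and other brakes gave 12 of 15, and 2 without mouse 5, Commd1 and Rnf11. Commd1, which promotes the removal of p65 from chromatin, read 7.49, 7.00, 7.18, 5.42 and 5.14 in mice 1 to 5 and 7.19 to 7.89 in the pool (limma adjusted p = 0.0132). Rnf11, a ubiquitin ligase that works with A20, was highest in mouse 4, at 7.60, with 5.97 to 6.56 in mice 1 to 3 and 7.36 in mouse 5 (adjusted p = 0.0434). Tax1bp1, an adaptor of A20, had the largest SD of this list, 1.79, and 0.12 without mouse 5. Otud7b, a deubiquitinase that limits the alternative branch, was the 1 gene of the lists with a different mean without mouse 5, and it is named for that after its values were seen. It read 8.49, 8.57, 8.12, 7.88 and 7.02 in mice 1 to 5 and 10.11 to 10.57 in the pool, lower in mice 1 to 4 by 2.10 (-2.10, SE 0.24, limma adjusted p = 0.032). Platelet markers were also lower in each mouse (-1.53 to -0.21) than on any pool array (0.68 to 1.08), and their part in the Otud7b value was not tested.

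Induced targets gave 18 of 26, and 2 without mouse 5, Cd83 and Ptgs2. Cd83, a surface protein of activated B cells and dendritic cells, read 7.57, 7.28, 8.74, 3.36 and 4.61 in mice 1 to 5 and 6.22 to 7.31 in the pool (limma adjusted p = 0.000273). Ptgs2, the inducible enzyme of prostaglandin synthesis, read 8.74, 8.34, 9.59, 6.76 and 3.35 in mice 1 to 5 and 8.39 to 10.02 in the pool (adjusted p = 0.0461), with an SD of 2.46 over the 5 mice. Of the mice, mouse 3 was the highest for both, and mouse 4 was the lowest of mice 1 to 4, while for Ptgs2 pool 3 stood above mouse 3. B cell and MHC class II markers had the same highest mouse (1.63 and 0.90 in mouse 3) and were lowest in mouse 4 (-2.55 and -2.17), and their part in the values of Cd83 and Ptgs2 was not tested.

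The genes with profiles most like the members were named by the root mean square difference of centred log2 values. Over 10 arrays, those nearest to the mean profile of the 9 genes were Sec23ip (0.0734), Zbtb6 (0.0886), Srsf4 (0.101), Slc30a9 (0.115) and Rnf7 (0.121), against an SD of 0.60 in the profile itself. Over the 9 arrays without mouse 5 they were Pdcl3 (0.0719), Sec23ip (0.0736), Plp2 (0.0739), Aldh6a1 (0.0745) and 2410004B18Rik (0.0792), against an SD of 0.26. For single members over the 9 arrays, the nearest were Hmces for Nfkb2 (0.0842) and for Bcl3 (0.0795), Cpt2 for Rel (0.108), Lgals4 for Rela (0.0813) and Selplg, the ligand of selectins, for Nfkbia (0.0851). They were Ccnd2, a cyclin, for Nfkbie (0.12), Cd53 for Nfkbiz (0.171), Fem1c for Tnfaip3 (0.197) and Itgb2l, a neutrophil integrin chain, for Traf1 (0.132). Itgb2l read 6.45, 6.67, 8.35, 6.80 and 5.60 in mice 1 to 5 and 6.65 to 7.12 in the pool. It was chosen over arrays that include mouse 3, so the high value there that it shares with Traf1 follows from the choice. Mouse 5 was not among those arrays, and Itgb2l, unlike Traf1, was lowest in it.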

How the data were processed

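The deposited matrix holds log2 signals, 1 for each probe set on each array, from RMA, which the submitters' processing notes name. Its version and the joint or separate treatment of the arrays are not given in the sources used here. Per the labels' protocols, RNA was amplified and labelled in 2 cycles and hybridized to MG-430 PM arrays. Of 45141 probe sets, 28898 carried 1 gene symbol in the platform annotation. The probe set with the highest mean stood for each gene, and a gene was tested if that mean exceeded 4.58, the median over the probe sets.

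The variance over the mice was divided by that over the pool arrays, which limma 3.58.1 (in R 4.3.3) moderated with a trend on intensity, and tested one-sided each way with the F distribution. Mean differences used the variance of the mice alone in limma, with the pool given the standard error of a mean of 5 mice. p-values were adjusted over all tested genes (Benjamini-Hochberg, threshold 0.05). Python 3.11.15 with pandas 2.3.3, numpy 2.4.6 and matplotlib 3.10.9 drew the plots and searched the sequences.

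The members, the lists and the array sets without mice 4 and 5 were chosen with earlier results of these data known. Named genes are the members, up to 4 genes of each list that passed without mouse 5 by variance ratio, the gene of each list with the largest SD, up to 3 with a different mean, and the nearest profiles. Replicate numbers do not pair the arrays, since they number single mice in the first group and portions of the pool of other mice in the second. Alternatives were other filters, scalings, probe sets, tests and array sets.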

Additional observations from a re-analysis of the deposited data

Results flagged for a closer look

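In 3 of the 18 groups of 5 values examined, 1 array lay far from the rest. Its gap over the range exceeded Dixon's 95% limit of 0.71. Only groups of the 9 genes were examined, so no share over all tested genes stands beside this count. All 3 were mouse 5, which was low, and which was the lowest of the 10 arrays for 43.8% of all tested genes. The groups of mice hold the same 5 animals and are not independent, so the count is not set against a rate of chance. It read 6.96 for Rela against 10.06 to 10.19 in mice 1 to 4, 5.84 for Nfkbia against 9.47 to 10.45, and 5.25 for Bcl3 against 8.14 to 8.92. The gap made up 0.958, 0.787 and 0.788 of the range of the mice. In the pool 0 of the 9 genes had such an array.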

How the results depend on the processing

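With all 10 arrays 7186 genes, 8 of them members, varied more between mice, and 0 genes had a different mean. The count of more variable genes was 10952 with no filter on dim genes (more genes tested), 4437 with the filter at the 75th percentile (fewer genes tested), 3760 with 4 members when the pool variance was not moderated, and 0 with 0 members in a Levene-type test in limma, where 153 genes and 0 members had an unadjusted p under 0.05. Leaving out 1 array at a time gave 2092 (without mouse 5) to 7568 (without pool 1) genes and 2 (without mouse 5) to 8 members, with 5 members without mouse 3. Without mice 4 and 5 together it gave 72 genes and 1 member. Nfkbiz lost its call after quantile normalization (limma adjusted p = 0.0508), and Nfkbie did when the variance was moderated without a trend (adjusted p = 0.0511). The log2 variance ratio of Rela ran from -5.14 to 5.25 when single arrays were left out and was -4.69 without mice 4 and 5, where that of Nfkbia was -1.25. For the means, an ordinary 2-group fit called 3 genes higher and 285 lower, the same fit with a replicate block 0 higher and 188 lower, and the same fit without mouse 5, chosen after seeing the data, 42 higher and 555 lower. The fit with the error of the mice called 72 higher and 376 lower without mice 4 and 5, and 0 to 2 higher and 0 to 185 lower when single arrays were left out (185 without mouse 5, 4 without mouse 3). None of these fits of the mean called a member. The deviations of arrays with the same replicate number correlated at 0.50, -0.26, 0.33, -0.20 and 0.44. Of the pool arrays, pool 1 correlated highest with mice 1, 2 and 3, pool 3 with mouse 4 and pool 4 with mouse 5. Only mouse 1 thus correlated highest with the pool array of its own number. The difference of the mice from the pool changed sign for Rela after quantile normalization (0.21). Without mice 4 and 5 it did for Rela (0.39), Tnfaip3 (0.69) and Bcl3 (0.40), and in the 2-group fit without mouse 5 for Rela (0.40), Nfkbia (0.089), Tnfaip3 (0.34) and Bcl3 (0.46). When single arrays were left out it ran from -0.097 to 0.35 for Nfkb2, -0.41 to 0.40 for Rela, -1.06 to 0.089 for Nfkbia, -0.53 to 0.34 for Tnfaip3, -0.19 to 0.31 for Traf1 and -0.45 to 0.46 for Bcl3. The cause of these changes was not tested, and the number of arrays limits the precision.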
